A study of Mus musculus with 12 samples.

Results

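The genes described here are 54 genes of the cell cycle and of proliferation, taken by symbol from a list and all found among the 5545 genes analysed, which run alphabetically up to Cyp26b1. They were measured by RNA sequencing of natural killer (NK) cells and type 1 innate lymphoid cells (ILC1) sorted from mouse livers. By role, 8 are D- and E-type cyclins and their kinases, 4 are inhibitors of cyclin-dependent kinases (CDK), 14 act in DNA replication, chromatin assembly and the S phase checkpoint, 10 act in G2 and mitotic entry, and 18 in the spindle, the kinetochore and cell division. Genes later in the alphabet, such as Mki67, the Mcm genes and Top2a, were not analysed here.

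Both populations came from the same 6 mice, labelled C57BL/6, which the study's methods give as female C57BL/6J. From weaning, 3 lean mice received the standard RM1 diet and 3 obese mice the palatable obesogenic diet 824018 (named 45% AFE fat, a share of its energy), with condensed milk added, and all were killed after 12 weeks. NK cells were sorted as Lin- NK1.1+ CD49a- CD49b+ and ILC1 as Lin- NK1.1+ CD49a+ CD49b-. This gave 12 libraries in 4 groups of 3, each made from 2 ng of total RNA, and mice are named by their numbers 25, 26 and 27 within each diet. A number that a lean and an obese mouse share does not mark 1 animal.

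A cell enters the cycle when D-type cyclins, bound to Cdk4 or Cdk6, and then E-type cyclins, bound to Cdk2, release the block that the retinoblastoma proteins place on E2F factors. CDK inhibitors hold these kinases back. E2F factors drive genes of DNA replication, and a later wave of genes for mitosis is controlled through CCAAT boxes and cell cycle genes homology regions (CHR) in their promoters, so mitotic RNAs are found mainly in cells that are dividing. Most NK cells and ILC1 of the healthy adult liver are not dividing, and both can be driven to proliferate by cytokines.

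Levels are given as CPM, scaled between libraries by trimmed mean of M-values (TMM), where 1 CPM is 1 read per 1000000 counts over the genes analysed. Differences were tested with edgeR's quasi-likelihood test on the deposited counts of all 2606 genes that passed a filter on low counts, and a gene is called where the Benjamini-Hochberg adjusted p is under 0.05 and the fold change over 2. All 54 cell cycle genes passed this filter. Values of 3 libraries are in the order of mouse 25, 26 and 27.

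By sum, the sorted populations carried the markers of their labels. The sum of the ILC1 genes Cd200r1 and Cxcr6 ran from 10652 to 13826 CPM in lean ILC1 and from 3396 to 11963 in obese ILC1, against at most 378 in NK cells. The sum of the mature NK cell genes Cma1 and Cx3cr1 ran from 3108 to 5870 CPM in NK cells and from 52.0 to 1611 in ILC1. The 1611 is that of obese ILC1 26, where Cx3cr1 stood at 1481 CPM, above its 461 to 1170 in NK cells, and Cma1 at 130 CPM. Library totals over the genes analysed were 1666637 to 2826766 counts.

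Before the results, 3 libraries are to be named. The libraries lean NK 27 and obese ILC1 25 had the fewest genes with a count, 1948 and 2014, against 2478 to 3292 in the 10 others. In lean NK 27, 25 of the 54 cell cycle genes were at 0, and all 25 had counts in each of the other 5 NK libraries, where none of the 54 genes was at 0. In obese ILC1 25, 15 of the 54 were at 0 and 25 had at most 1 count, while 22 had over 200 counts. A count of 0 allows a level of up to 1.03 to 2.51 CPM, depending on the library, as a floor of 3 counts that covers counting error only. The library obese ILC1 26 stood apart by RNAs of other cells, with 152972 CPM for 10 hepatocyte genes against at most 627 in any other library, and the highest sums for B cell, Kupffer cell, sinusoidal endothelial and neutrophil genes. Where leaving out 1 of these 3 libraries moved a fold change given for a gene by over 1.5 times, the value without it is also given.

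**Figure D1:**
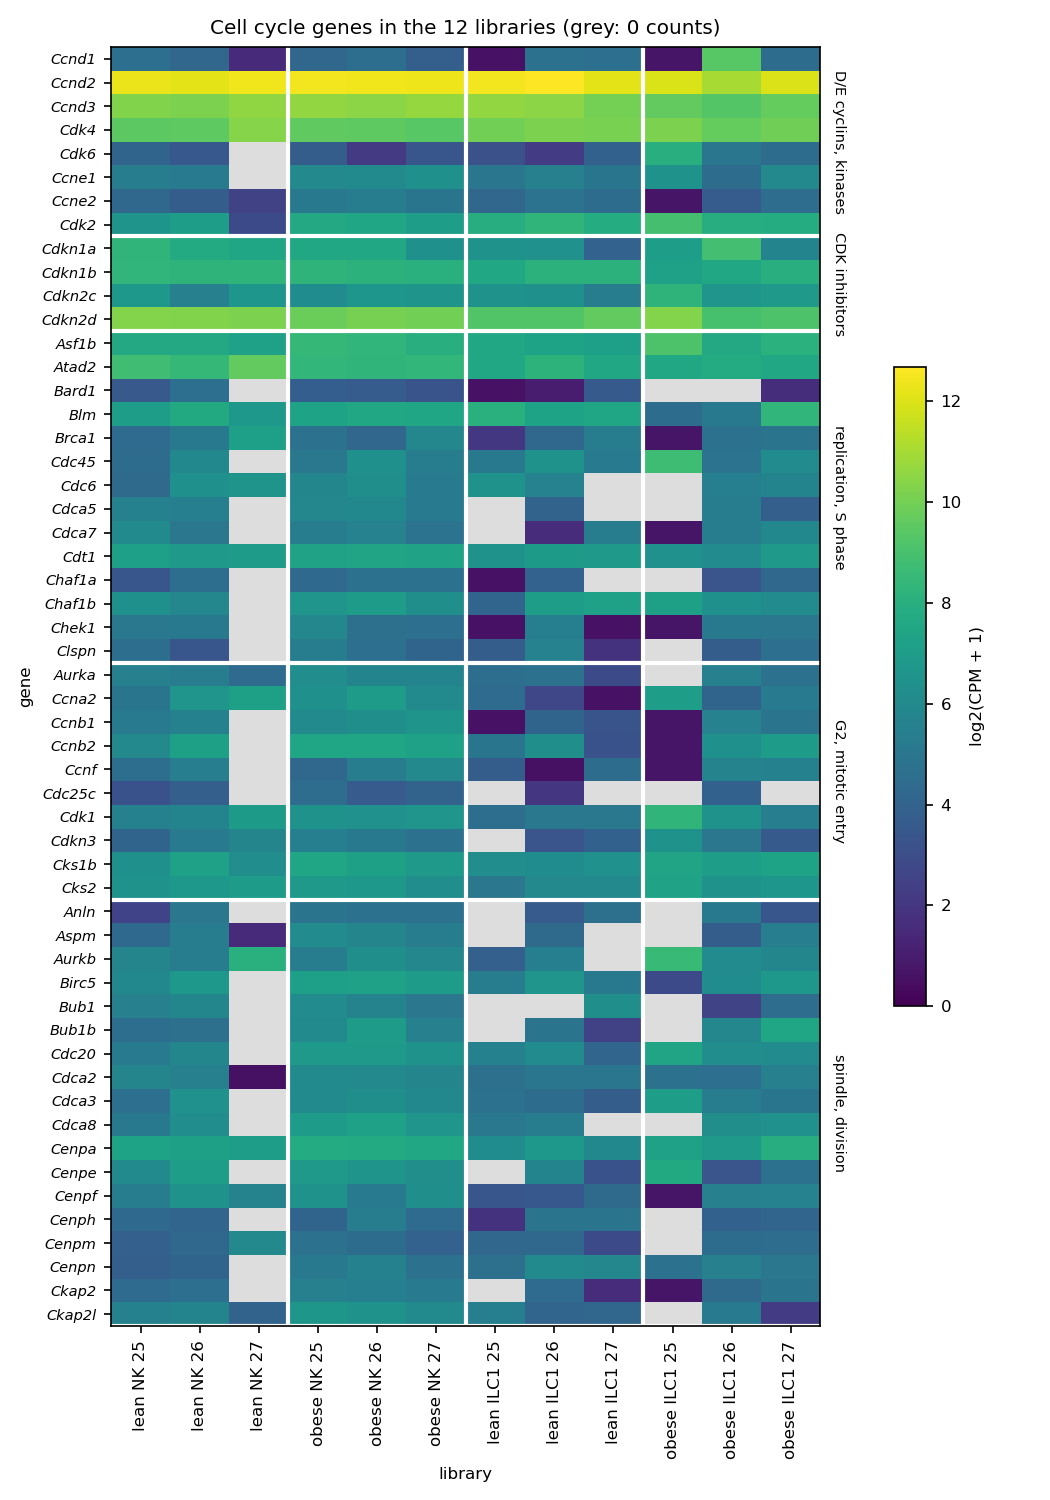
Level of each of the 54 genes, in rows grouped by role, in each of the 12 libraries, in columns, as log2(CPM + 1), with grey for 0 counts. The 25 grey cells of lean NK 27 and the 15 of obese ILC1 25 stand beside full columns in the obese NK libraries, and the rows of Ccnd2, Ccnd3, Cdk4 and Cdkn2d are bright throughout.

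Promoter sequence was looked at because the roles differ in the elements that are known to drive them. RefSeq promoter windows of GRCm38.p6, from 250 bases before to 50 after the start, were at hand for 46 of the 54 genes (the first window where a gene had several). The CHR was searched as TTTGAA or TTTAAA, the E2F site as TTTCCCGC, TTTCGCGC, TTTGCCGC or TTTGGCGC, and the CCAAT box as CCAAT, each on both strands. A CHR and a CCAAT box were both present in 7 of 8 windows of the G2 and mitotic entry genes and in 11 of 16 of the spindle and division genes, in 2 of 13 of the replication genes, in 1 of 4 of the inhibitors and in 0 of 5 of the D- and E-type cyclins and kinases. Of all 27025 windows in the table, 10.9% held both. The E2F letters were found in 5 of 13 windows of replication genes (38.5%) and in 2.32% of all windows. A match describes these letters only and is no evidence of binding.

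To show the arrangement, 120 bases that end before the outermost annotated start are printed for 5 genes, 5' to 3' on the gene's strand, with matches in capitals. Cdk1 (chr10:69352939-69353058, minus strand), the kinase that starts mitosis, has E2F, CHR and CCAAT letters. Cdc20 (chr4:118437353-118437472, minus strand), the activator of the anaphase-promoting complex, and Ckap2l (chr2:129297213-129297332, minus strand), a spindle protein, have CHR and CCAAT letters. Cdkn1b (chr6:134920281-134920400, plus strand), which encodes the inhibitor p27, has the same pair. Ccnd3 (chr17:47504931-47505050, plus strand), the D-type cyclin with the 1 called difference, has none of these letters here, in the first of its windows.
Cdk1: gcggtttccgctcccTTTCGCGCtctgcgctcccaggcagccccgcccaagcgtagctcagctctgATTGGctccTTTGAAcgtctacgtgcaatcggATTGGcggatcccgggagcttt
Cdc20: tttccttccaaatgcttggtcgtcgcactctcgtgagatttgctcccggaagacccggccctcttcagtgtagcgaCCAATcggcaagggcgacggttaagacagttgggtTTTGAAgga
Ckap2l: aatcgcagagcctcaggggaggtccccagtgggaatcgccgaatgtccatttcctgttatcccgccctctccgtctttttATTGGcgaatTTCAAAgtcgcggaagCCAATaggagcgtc
Cdkn1b: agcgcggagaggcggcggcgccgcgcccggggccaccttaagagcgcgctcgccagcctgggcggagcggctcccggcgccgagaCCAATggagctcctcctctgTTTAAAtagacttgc
Ccnd3: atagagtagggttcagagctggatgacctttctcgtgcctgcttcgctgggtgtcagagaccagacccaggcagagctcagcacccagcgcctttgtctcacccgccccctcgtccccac

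D-type cyclins, their kinase Cdk4 and the inhibitor Cdkn2d made up most of the signal. Per kilobase of exon, the highest mean levels over the 12 libraries were those of Cdkn2d (587 CPM per kilobase), Ccnd2 (518), Cdk4 (288) and Ccnd3 (141). The mitotic genes lay lower, with Ccnb2 at 57.3, Cdc20 at 38.1 and Cdk1 at 17.2 CPM per kilobase. Bard1, a partner of Brca1 in DNA repair, was the lowest at 1.21.

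Ccnd2 and Ccnd3, the D-type cyclins of lymphocytes, were lowest in the ILC1 of obese mice. Ccnd3 stood at 1260.2, 1142 and 1505 CPM in lean NK cells, 1569, 1449 and 1623 in obese NK cells, 1584, 1443 and 1036 in lean ILC1 and 781, 632 and 810.2 in obese ILC1. All 3 obese ILC1 libraries were thus below the other 9. Ccnd3 fell by 1.06 on the log2 scale in obese ILC1 against obese NK cells (SE 0.194, adjusted p = 0.0289, edgeR), and it was the only 1 of the 54 genes called in any of the 6 comparisons, in one where 0.921% of all genes tested were called. Against lean ILC1 the values of Ccnd3 gave log2 fold change -0.87, SE 0.194, adjusted p = 0.208. For the difference of the diet effect between ILC1 and NK cells it had a log2 fold change -1.12, SE 0.273, adjusted p = 0.647, and DESeq2 gave an adjusted p of 0.0491 for this difference.

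The Ccnd3 call was lost in several other fits. Its adjusted p was 0.149 when the 6 obese libraries were fitted alone and 0.181 with the mouse as a block, with log2 fold changes of -1.06 and -1.07. It was also lost without lean NK 25, without lean ILC1 26 and without any 1 of the 3 obese NK libraries (adjusted p from 0.0516 to 0.174), and without obese ILC1 26, where the fold change was under 2 (log2 fold change -0.97, adjusted p = 0.0340). Ccnd3 lies at chr17:47505051-47599691 of GRCm38 and shares exon sequence with Bysl on the other strand. The use of strand in counting is not given in the sources used here, and without strand the reads of such pairs cannot be told apart. Bysl itself stood at 196.9, 206.3 and 180.1 CPM in obese NK cells, above its 0.620, 172.1 and 131.9 in obese ILC1. In lean ILC1 it stood at 161.9, 190.8 and 131.4 CPM. Obese ILC1 against obese NK cells gave Bysl a log2 fold change of -0.94 (SE 1.03, adjusted p = 0.832, edgeR). The part of Bysl reads in the Ccnd3 counts was not tested. In all, 15 of the 54 genes share exon sequence with a gene on the other strand, among them Ccnd2, Cdk4, Cdk2, Ccna2 and Cdc20.

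Ccnd2 stood at 5125, 4576 and 5424 CPM in lean NK cells, 5603, 5452 and 5339 in obese NK cells, 5557, 6569 and 4630.2 in lean ILC1 and 4011, 2068 and 4075 in obese ILC1. The obese ILC1 values did not overlap those of the other groups, and the lowest was that of obese ILC1 26. The difference from lean ILC1 was not called (log2 fold change -0.72, SE 0.235, adjusted p = 0.287), nor was that from obese NK cells (log2 fold change -0.69, SE 0.235, adjusted p = 0.202). Ccnd1 was near the floor in several libraries, at 23.8, 17.2 and 1.9 CPM in lean NK cells, 17, 23 and 13.5 in obese NK cells, 0.533, 26.8 and 23.8 in lean ILC1 and 0.62, 658 and 21.4 in obese ILC1. Its 1 high value is that of obese ILC1 26, the library with the hepatocyte RNAs, and the part of those cells in it was not tested.

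Of the kinases Cdk2, Cdk4 and Cdk6, 0 were called in any comparison with all libraries by edgeR or DESeq2. Cdk2, the partner of the E-type cyclins, stood at 94.4, 133 and 6.17 CPM in lean NK cells, 201, 179.6 and 138 in obese NK cells, 237, 318 and 228 in lean ILC1 and 485, 235 and 231 in obese ILC1. It was the only 1 of the 54 genes that was higher in ILC1 than in NK cells in 6 of 6 mice, and no ILC1 library was as low as any NK library. The difference over both diets was not called (log2 fold change 1.31, SE 0.543, adjusted p = 0.215). In lean mice alone Cdk2 gave log2 fold change 1.74, SE 0.778, adjusted p = 0.366, and with lean NK 27 and obese ILC1 25 left out it was called there (log2 fold change 1.20, SE 0.270, adjusted p = 0.0429).

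Cdk4 stood at 725, 730.1 and 1310.2 CPM in lean NK cells, 758, 731 and 676 in obese NK cells, 1019, 1175 and 1119 in lean ILC1 and 1179, 822 and 982 in obese ILC1. Apart from the high value of lean NK 27, every NK library was below every ILC1 library, with log2 fold change 0.36, SE 0.171, adjusted p = 0.285 over both diets. Cdk6, the other partner of the D-type cyclins, stood at 15.7, 10.4 and 0 CPM in lean NK cells, 12.6, 3.43 and 9.66 in obese NK cells, 7.99, 3.53 and 14.5 in lean ILC1 and 257, 30.1 and 21.1 in obese ILC1. The 3 obese ILC1 values were above all others, and the highest was that of obese ILC1 25 (log2 fold change 3.56, SE 1.55, adjusted p = 0.427 against lean ILC1). Without obese ILC1 25 the log2 fold change of Cdk6 was 1.54 (SE 1.48, adjusted p = 0.741).

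The E-type cyclins were higher in NK cells of obese mice than in those of lean mice by their values alone. Ccne1 stood at 38.6, 36 and 0 CPM in lean NK cells, 61.2, 64.4 and 81.1 in obese NK cells, 30.4, 44.9 and 29.5 in lean ILC1 and 88.1, 21.7 and 62.5 in obese ILC1. Ccne2 stood at 18.1, 12.5 and 4.74 CPM in lean NK cells, 34.4, 38.7 and 29.8 in obese NK cells, 17, 27.3 and 21.2 in lean ILC1 and 0.62, 11.7 and 22.2 in obese ILC1. Lean and obese NK cells did not overlap in either gene, and neither difference was called (log2 fold change 1.47 ± 1.26 for Ccne1 and 1.54 ± 1.1 for Ccne2, ± SE, adjusted p = 1 for both).

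**Figure D2:**
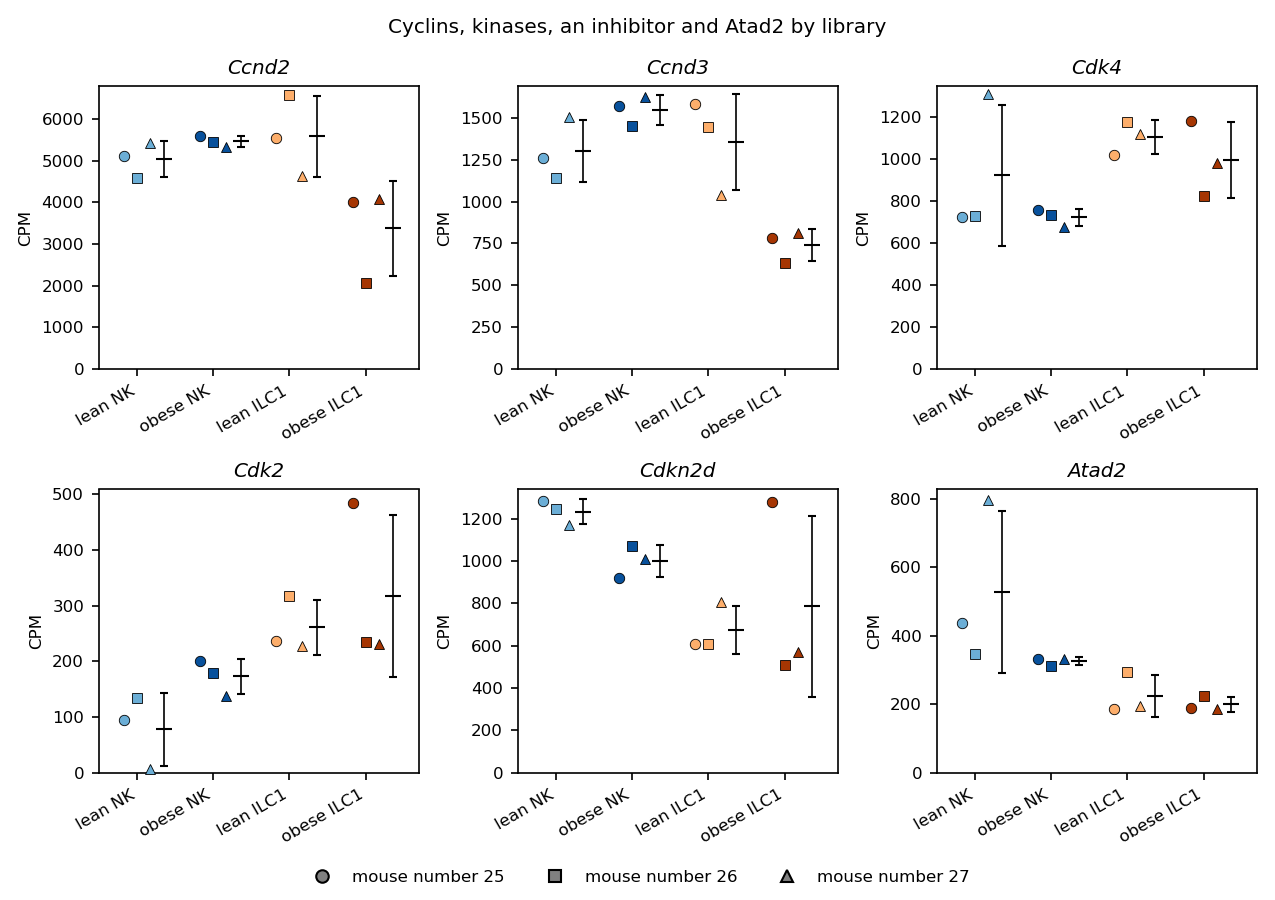
CPM of Ccnd2, Ccnd3, Cdk4, Cdk2, Cdkn2d and Atad2 in each library, by group, with the mouse number as the symbol and the mean ± SD of 3 libraries in black. The obese ILC1 points of Ccnd2 and Ccnd3 lie below the rest, the ILC1 points of Cdk2 above the NK points, and the ILC1 points of Atad2 below the NK points.

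Of the CDK inhibitors, 3 of 4 had lower values in every lean ILC1 library than in any lean NK library, against 11.1% of all genes tested. Cdkn2d, which encodes the Cdk4 and Cdk6 inhibitor p19INK4d, stood at 1284, 1246 and 1169 CPM in lean NK cells, 921, 1073 and 1009.6 in obese NK cells, 610.3, 608 and 805 in lean ILC1 and 1280.5, 510.4 and 570.4 in obese ILC1. Obese ILC1 25 is the 1 ILC1 library that is not below all NK libraries. The difference between ILC1 and NK cells was not called over both diets (log2 fold change -0.61, SE 0.217, adjusted p = 0.138) or in lean mice (log2 fold change -0.87, SE 0.309, adjusted p = 0.227).

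Cdkn1a, which encodes p21 and is induced by p53, stood at 308, 213 and 179 CPM in lean NK cells, 189, 185 and 82.7 in obese NK cells, 91.6, 83.3 and 15 in lean ILC1 and 135, 481 and 52.7 in obese ILC1. The highest value is again that of obese ILC1 26, and lean ILC1 against lean NK cells gave log2 fold change -1.88, SE 0.831, adjusted p = 0.357. Cdkn1b stood at 329.9, 300.2 and 298 CPM in lean NK cells, 299, 288 and 267 in obese NK cells, 193, 281 and 287 in lean ILC1 and 151, 189.6 and 253 in obese ILC1. In each diet all ILC1 values of Cdkn1b were below all NK values, with log2 fold change -0.41, SE 0.2, adjusted p = 0.314 over both. Cdkn2c, which encodes p18INK4c, stood at 109, 44.3 and 100.1 CPM in lean NK cells, 69.7, 102 and 92.7 in obese NK cells, 87.3, 81.8 and 40.9 in lean ILC1 and 308, 96.9 and 116 in obese ILC1. It was higher in every obese than in any lean ILC1 library (log2 fold change 1.31, SE 0.598, adjusted p = 0.471), with a log2 fold change of 0.59 (SE 0.520) without obese ILC1 25.

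Summed over the 4 inhibitors, lean NK cells had 2032, 1804 and 1747 CPM, obese NK cells 1479, 1648 and 1452, lean ILC1 982, 1054 and 1148 and obese ILC1 1875, 1278 and 992. The lean NK libraries were above the obese NK libraries and above the lean ILC1 libraries, without overlap.

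Atad2, a chromatin ATPase of S phase, was lower by its values in ILC1 than in NK cells. It stood at 439, 347 and 796 CPM in lean NK cells, 333, 312 and 333 in obese NK cells, 185, 295 and 194 in lean ILC1 and 189, 225 and 186 in obese ILC1. Every ILC1 library was below every NK library. Over both diets Atad2 had an adjusted p under the threshold and a fold change under 2 (log2 fold change -0.97, SE 0.236, adjusted p = 0.0366, edgeR), so that it was not called. It was called when lean NK 26, lean ILC1 26 or obese ILC1 26 was left out (log2 fold change from -1.11 to -1.03, adjusted p from 0.0308 to 0.0434) and by DESeq2 in lean mice (log2 fold change -1.24, adjusted p = 0.0133).

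The other 3 replication genes with the highest levels were Asf1b, Cdt1 and Blm. Asf1b, a chaperone of histones H3 and H4 at the replication fork, stood at 198, 201 and 151 CPM in lean NK cells, 342, 327 and 247 in obese NK cells, 186, 161 and 139.7 in lean ILC1 and 559.9, 199 and 278 in obese ILC1. It was higher in every obese than in any lean library of both cell types, with log2 fold change 0.74, SE 0.381, adjusted p = 1 in NK cells and log2 fold change 1.09, SE 0.384, adjusted p = 0.308 in ILC1. Cdt1, which loads the MCM helicase at origins, stood at 141, 116 and 124 CPM in lean NK cells, 157, 171 and 155 in obese NK cells, 87.9, 121 and 114 in lean ILC1 and 85.6, 67.7 and 110.1 in obese ILC1. Obese ILC1 were below obese NK cells in all libraries (log2 fold change -0.88, SE 0.376, adjusted p = 0.313). Blm, a RecQ helicase, stood at 135, 210.01 and 106 CPM in lean NK cells, 161, 186 and 183 in obese NK cells, 262, 161 and 174 in lean ILC1 and 21.7, 33.4 and 328 in obese ILC1. The obese ILC1 libraries lay on both sides of all others, and without obese ILC1 27 Blm was called lower there than in obese NK cells (log2 fold change -2.68, SE 0.508, adjusted p = 0.0314).

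The other 10 genes of replication and the S phase checkpoint (Bard1, Brca1, Cdc45, Cdc6, Cdca5, Cdca7, Chaf1a, Chaf1b, Chek1 and Clspn) were not called in any comparison by edgeR. Of the 14 replication genes, 10 had a positive log2 fold change in obese against lean NK cells and 6 in obese against lean ILC1, with medians of 0.50 and -0.08. Against NK cells, 11 of 14 had a negative log2 fold change in ILC1 over both diets (median -0.65).

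After TMM scaling, the sum of the genes of G2, mitosis and division was higher in every obese than in any lean library within each cell type. It was lower in the ILC1 than in the NK cells of each of the 6 mice. Gene by gene, every obese library was above every lean one for 11 of the 28 in NK cells (39.3%, against 11.6% of all genes tested). In ILC1 this held for 7 of the 28 (25%, against 7.21%). The sum of these 28 genes was 1175, 1794 and 1068 CPM in lean NK cells, 2275, 2331 and 1872 in obese NK cells, 565, 981 and 639 in lean ILC1 and 1965, 1362 and 1639 in obese ILC1. Obese over lean, the mean sum was 1.604-fold higher in NK cells (1.45-fold without lean NK 27) and 2.27-fold higher in ILC1 (2.06-fold without obese ILC1 25 and 2.47-fold without obese ILC1 26). With CPM over raw library totals the sum of obese ILC1 26 was 889.9 CPM, below the 1021 of lean ILC1 26, so that the ILC1 groups overlapped. ILC1 had 0.541 of the NK sum in lean mice (0.491 without lean NK 27) and 0.767 in obese mice (0.695 without obese ILC1 25 and 0.835 without obese ILC1 26). In bulk libraries, fewer dividing cells and less of these RNAs per dividing cell cannot be told apart. No p is given for a sum, since the list was chosen with results of these data known.

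Other cell cycle genes are given for comparison. The 70 other cell cycle genes of a second list that are in the table, such as subunits of the anaphase-promoting complex, ran from 27077 to 29869 CPM in lean NK cells, from 25948 to 27909 in obese NK cells, from 24217 to 26334 in lean ILC1 and from 19933 to 25173 in obese ILC1. Lean and obese libraries overlapped in both cell types. Like the mitotic sum, the sum of these genes was lower in the ILC1 than in the NK cells of each of the 6 mice. ILC1 had 0.897 of the NK sum in lean and 0.850 in obese mice. Over both diets, 44 of the 65 genes tested had a negative log2 fold change in ILC1 against NK cells (median -0.21). Of the 65 that were tested, 0 were called in any of the 6 comparisons by edgeR, with 0 to 8 at an unadjusted p under 0.05 in each, while DESeq2 called up to 2 in each (Ccdc6, Cdc25b or Cdk2ap1).

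**Figure D3:**
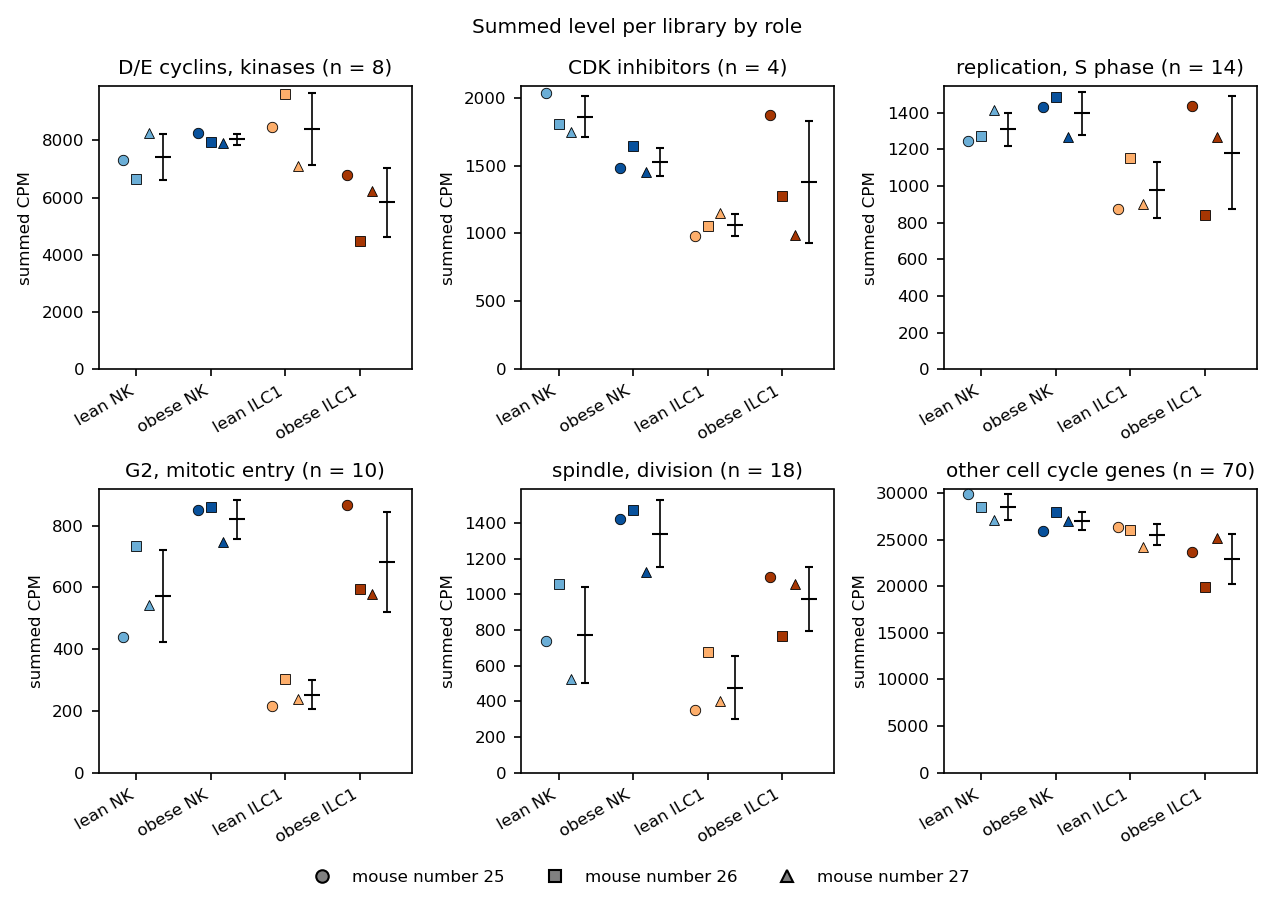
Summed CPM per library for each of the 5 roles and for the 70 other cell cycle genes, by group, with the mouse number as the symbol and the mean ± SD of 3 libraries in black (axes start at 0). The sums of G2 and mitotic entry genes run from 215 to 304 in lean ILC1 and from 580.2 to 869 in obese ILC1, and the inhibitors have their highest group mean in lean NK cells, with obese ILC1 25 at 1875.

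In NK cells, edgeR called 0 of the 54 genes between obese and lean mice, as it called 0% of all genes tested. At an unadjusted p under 0.05 stood 0 of the 54 genes and 1.19% of all genes. DESeq2 and the likelihood-ratio test also called 0 of the 54, with 8 of 3623 and 2 of 2606 genes called. The log2 fold change was positive for 40 of 54 (74.1%) and for 57.1% of all genes, with a median of 0.61 against 0.09. By role, it was positive for 7 of 10 genes of G2 and mitotic entry (median 0.62) and for 16 of 18 of the spindle and division (median 1.13). Without lean NK 27 the numbers were 9 of 10 (median 0.50) and 16 of 18 (median 0.55).

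Every obese NK library was above every lean one for 16 of the 54 genes (29.6%), against 11.6% of all genes tested. These were Ccne1, Ccne2, Cdk2, Asf1b, Cdt1, Aurka, Ccnb1, Ccnb2, Birc5, Bub1b, Cdc20, Cdca8, Cenpa, Cenpn, Ckap2 and Ckap2l. The reverse held for Cdkn2d and Atad2, 2 of 54 (3.7%), against 5.53% of all genes. With lean NK 27 left out, 19 of 54 were higher in every obese library (35.2%), against 17.1% of all genes. Left out in its place, lean NK 26 raised the number to 25 of 54, against 19.6% of all genes.

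The spread of the 54 genes differed between the NK groups, with a median coefficient of variation of 86.7% within lean NK cells, which hold lean NK 27, and of 20.6% within obese NK cells. All genes tested differed the same way, with medians of 53.5% and 15.4%. In a fit of the NK libraries alone without lean NK 27, an analysis chosen after the data had been seen, 1 of the 54 genes was called, Cdc20 (log2 fold change 1.19, SE 0.266, adjusted p = 0.0483), against 0.438% of all genes called higher. In the same fit 17 of the 54 genes had a higher and 2 a lower level in obese mice at an unadjusted p under 0.05 (35.2%), against 14.6% of all genes. The lower ones were Cdkn2d and Cdkn1a, both inhibitors.

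Values by library show what these differences rest on. Cdc20 stood at 38.1, 54.7 and 0 CPM in lean NK cells, 117, 111 and 91.6 in obese NK cells, 46.3, 68.2 and 16.6 in lean ILC1 and 169, 74.3 and 68.7 in obese ILC1. Obese libraries were above lean ones in both cell types, in ILC1 by a margin of 68.7 against 68.2 CPM. Birc5, which encodes survivin of the chromosomal passenger complex, stood at 59.1, 107 and 0 CPM in lean NK cells, 139.8, 151 and 123 in obese NK cells, 39.4, 95.4 and 33.6 in lean ILC1 and 6.2, 71 and 108 in obese ILC1. Ccnb2, a B-type cyclin that activates Cdk1, stood at 61.5, 149 and 0 CPM in lean NK cells, 178, 183 and 154 in obese NK cells, 29.3, 78.3 and 8.28 in lean ILC1 and 0.62, 82.7 and 128 in obese ILC1. For both genes NK cells of obese and lean mice did not overlap, while ILC1 did, with the lowest obese value in obese ILC1 25.

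Cenpa, the histone H3 variant of the centromere, stood at 160.2, 146 and 133 CPM in lean NK cells, 222, 212 and 185 in obese NK cells, 70.3, 107 and 60.5 in lean ILC1 and 154, 117 and 237 in obese ILC1. It had counts in all 12 libraries and lay above the lean values in every obese library of its cell type, with log2 fold change 0.50, SE 0.386, adjusted p = 1 in NK cells and log2 fold change 1.10, SE 0.39, adjusted p = 0.308 in ILC1. DESeq2 called it in ILC1 (log2 fold change 1.13, adjusted p = 0.0231). Cenpn, a reader of Cenpa nucleosomes, stood at 13.4, 16.2 and 0 CPM in lean NK cells, 34, 46.3 and 25.1 in obese NK cells, 24.5, 67.1 and 57.4 in lean ILC1 and 26, 44.3 and 32 in obese ILC1. It was the 1 gene of mitosis higher in every lean ILC1 than in any lean NK library (log2 fold change 2.33, SE 1.24, adjusted p = 0.498).

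Aurkb, the kinase of the chromosomal passenger complex, was uneven in the libraries with few genes. It stood at 54.4, 39.1 and 262 CPM in lean NK cells, 38.9, 78.8 and 56.8 in obese NK cells, 13.8, 42.9 and 0 in lean ILC1 and 371, 68.5 and 56 in obese ILC1. Its 2 highest values are those of lean NK 27 and obese ILC1 25, although Birc5, a subunit of the same complex, was at 0 in lean NK 27. The difference of its diet effect between ILC1 and NK cells was wide (log2 fold change 4.15, SE 1.94, adjusted p = 0.827). For Aurkb it was 2.79 without lean NK 27, 2.73 without obese ILC1 25 and 1.38 without both.

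**Figure D4:**
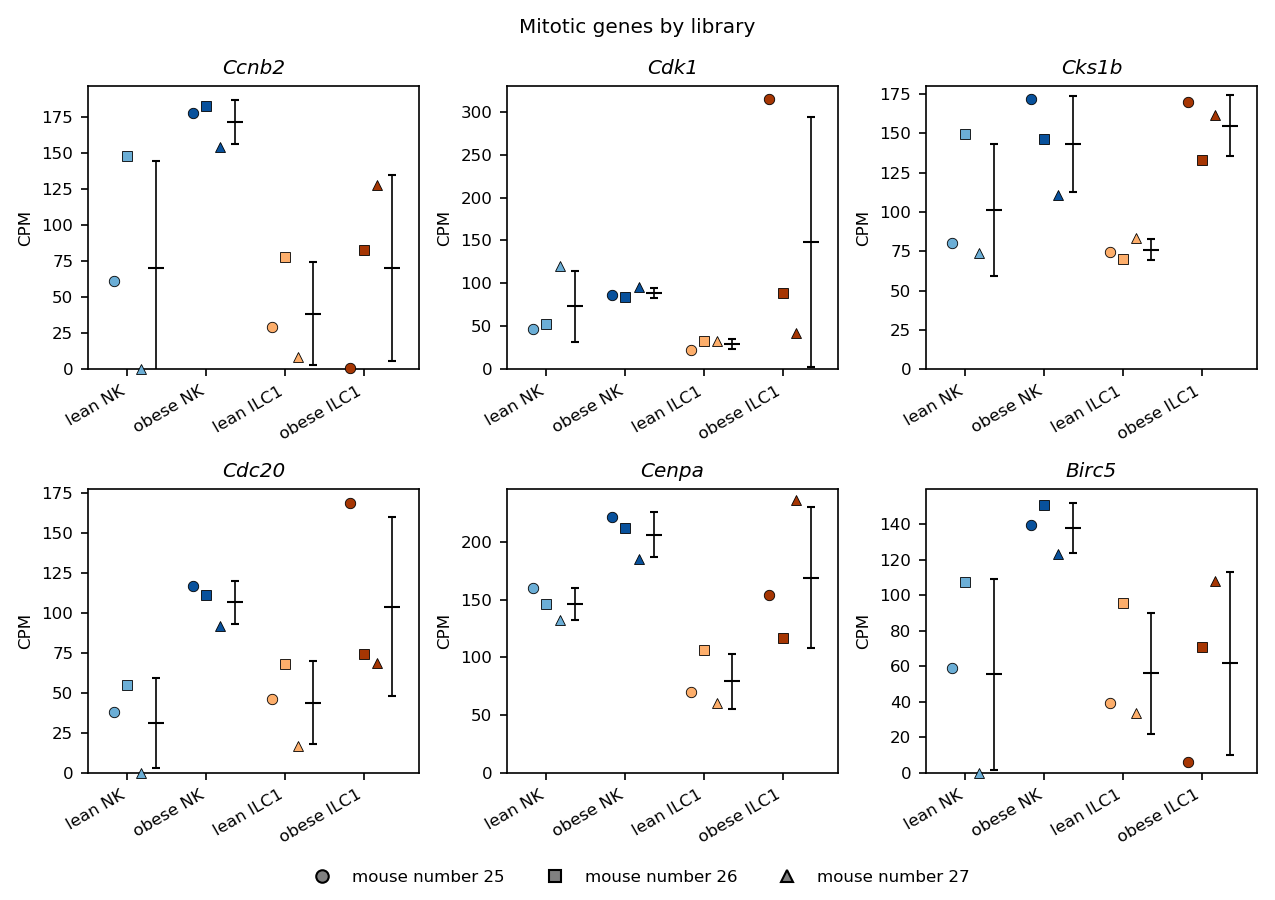
CPM of Ccnb2, Cdk1, Cks1b, Cdc20, Cenpa and Birc5 in each library, by group, with the mouse number as the symbol and the mean ± SD of 3 libraries in black. Obese NK points of Ccnb2, Cdc20, Cenpa and Birc5 lie above the lean NK points, and the triangle of lean NK 27 lies at 0 for Ccnb2, Cdc20 and Birc5.

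Markers of other cells and of the sort itself moved with diet in NK cells. The ILC1 genes Cd200r1 and Cxcr6 summed to 34.2 to 69.6 CPM in lean and 125 to 378 in obese NK cells, and the mature NK cell genes to 4093 to 5870 and 3108 to 3779, both without overlap. The sum of 10 hepatocyte genes was 21.9 to 110 CPM in lean NK cells and 100.1 to 437 in obese NK cells, and that of 9 T cell genes 492 to 989 and 786 to 1122. Of the T cell genes, Cd3d stood at 56.7, 80.3 and 38.4 CPM in lean and 125, 189 and 97 in obese NK cells. Cd3e stood at 8.58, 17.7 and 5.69 CPM in lean and 38.1, 57.6 and 21.3 in obese NK cells. Both were without overlap, while Cd3g and Cd28 overlapped, and the other T cell genes had at most 68 counts in any NK library. B cell genes ran from 56.3 to 217 CPM in lean and from 53.1 to 89.2 in obese NK cells, and Kupffer cell genes from 46.7 to 201 and from 78.5 to 116. Endothelial genes summed to at most 22.4 CPM in lean and 39.7 in obese NK cells, and neutrophil genes were at 0 in lean NK cells and at most at 14.6 CPM in obese NK cells. The sum of 5 erythroid genes was 1386 to 1903 CPM in lean and 2667 to 3089 in obese NK cells, also without overlap and nearly all of it Car2. Of the other erythroid genes, Alas2 stood at 10.5, 36 and 0 CPM in lean and 37.3, 37 and 30.1 in obese NK cells, Ank1 had at most 10 counts, and Car1 and Cldn13 were at 0 in all 6 NK libraries. The part of such cells in the levels of the cell cycle genes was not tested.

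In ILC1, edgeR called 0 of the 54 genes between obese and lean mice, as it called 0% of all genes tested. DESeq2 called 2 of the 53 it tested, Cdk1 and Cenpa, with 77 of 3623 genes called. The likelihood-ratio test called 0 of the 54, with 57 of 2606 genes called. At an unadjusted p under 0.05 were 9 of the 54 (16.7%), against 10.6% of all genes. Of these 9, Asf1b, Ccna2, Cdk1, Cdk6, Cenpa, Cks1b and Cks2 were higher and Ccnd2 and Ccnd3 lower in obese mice. All 10 genes of G2 and mitotic entry had a positive log2 fold change (median 1.53), as had 14 of 18 of the spindle and division (median 1.09), while the median of all genes tested was 0.02. Without obese ILC1 26 the numbers were 8 of 10 (median 1.08) and 12 of 18 (median 0.85), and without obese ILC1 25 they were 10 of 10 (median 1.43) and 13 of 18 (median 0.74).

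Cdk1 stood at 46.2, 52.6 and 120.5 CPM in lean NK cells, 85.9, 84.3 and 95.8 in obese NK cells, 22.9, 33.3 and 33.1 in lean ILC1 and 314, 88.5 and 42.1 in obese ILC1. Obese ILC1 25 had the highest value, at 314 CPM (log2 fold change 2.31, SE 0.753, adjusted p = 0.287, edgeR, and adjusted p = 0.0339 by DESeq2), and the other obese ILC1 values were also above the lean ones. Without obese ILC1 25 the log2 fold change of Cdk1 was 1.12 (SE 0.580, adjusted p = 0.389), and with obese ILC1 26 and lean NK 27 left out as well it was 0.50. Cks1b and Cks2, small subunits that bind CDK, were steadier. Cks1b stood at 80.6, 149.6 and 74 CPM in lean NK cells, 172, 147 and 111 in obese NK cells, 74.6, 70.2 and 83.3 in lean ILC1 and 169.9, 133 and 162 in obese ILC1. Cks2 stood at 91.1, 108 and 125 CPM in lean NK cells, 113, 106 and 72.6 in obese NK cells, 32, 61.1 and 62.6 in lean ILC1 and 157, 86.9 and 98.8 in obese ILC1. Both had higher values in every obese than in any lean ILC1 library, with log2 fold change 1.03, SE 0.421, adjusted p = 0.386 for Cks1b and log2 fold change 1.14, SE 0.489, adjusted p = 0.417 for Cks2.

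Ccna2, the A-type cyclin of S phase and G2, stood at 29.1, 98.5 and 149 CPM in lean NK cells, 81, 127 and 64.5 in obese NK cells, 20.8, 5.55 and 0.517 in lean ILC1 and 137, 15.9 and 37.4 in obese ILC1. Lean ILC1 were below all NK libraries (log2 fold change -3.36, SE 1.22, adjusted p = 0.24), a difference that DESeq2 called (log2 fold change -3.39, adjusted p = 0.0316), and obese ILC1 overlapped both.

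Markers of other cells moved with diet in ILC1 too, in all 3 obese libraries for some lists. Kupffer cell genes summed to 89.0 to 228 CPM in lean and 985 to 22253 in obese ILC1, hepatocyte genes to 105 to 127 and 165 to 152972, and erythroid genes to 925 to 1203 and 2601 to 3970, each without overlap. Of the Kupffer cell genes, Adgre1, Cd68 and Clec4f alone separated lean from obese ILC1. C1qa, C1qc, Cd5l and Csf1r were at 0 CPM in obese ILC1 25, and C1qb overlapped. Of the hepatocyte genes, Alb, Ambp, Apoa1, Apoa2 and Apoc3 separated the groups, with Alb at 59.9 CPM in obese ILC1 27 against 56.4 in lean ILC1 27. The other hepatocyte genes overlapped. Of the erythroid genes, Car2 stood at 1200, 907 and 1099 CPM in lean and 2425, 852 and 3947 in obese ILC1. Alas2 stood at 3.2, 18.2 and 44 CPM in lean and 177, 2827 and 22.2 in obese ILC1. Neither Car2 nor Alas2 alone separated lean from obese ILC1. T cell genes ran from 7667 to 9126 CPM in lean and from 2472 to 7969 in obese ILC1. Most of the lean sum was Cd3g, at 6414, 6639 and 6869 CPM in lean and 6366, 1663 and 1045 in obese ILC1. Other T cell genes did not follow it. In obese ILC1 26, Cd3e, Cd4, Cd5, Cd6, Cd8a and Cd8b1 were above every lean ILC1 library, and Cd3d and Cd28 overlapped between the diets. B cell genes ran from 76.7 to 165 CPM in lean and from 90.1 to 9907 in obese ILC1. Endothelial genes ran from 30.3 to 45.8 and from 35.2 to 11466 CPM, and neutrophil genes were at 0 in lean ILC1 and at 0 to 2585 CPM in obese ILC1. The ILC1 genes ran from 10652 to 13826 CPM in lean and from 3396 to 11963 in obese ILC1, and the mature NK cell genes from 52.0 to 331 and from 240 to 1611. The part of such cells in the levels of the cell cycle genes in ILC1 was not tested.

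Every obese ILC1 library was above every lean one for 10 of the 54 genes (18.5%), against 7.21% of all genes tested. These were Cdk6, Cdkn2c, Asf1b, Cdk1, Cks1b, Cks2, Aurkb, Cdc20, Cdca3 and Cenpa. The reverse held for Ccnd2 and Ccnd3, 2 of 54 (3.7%), against 8.71% of all genes. Without obese ILC1 25 the number rose to 18 of 54 (33.3%), against 16% of all genes, and with CPM over raw library totals in place of TMM it fell to 4 of 54, against 3.57%. Obese ILC1 26 lies in this comparison with its RNAs of other cells. With it, obese ILC1 25 and lean NK 27 all left out, 1 obese ILC1 library remained, and the log2 fold change of Cenpa against lean ILC1 was 1.58.

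**Figure D5:**
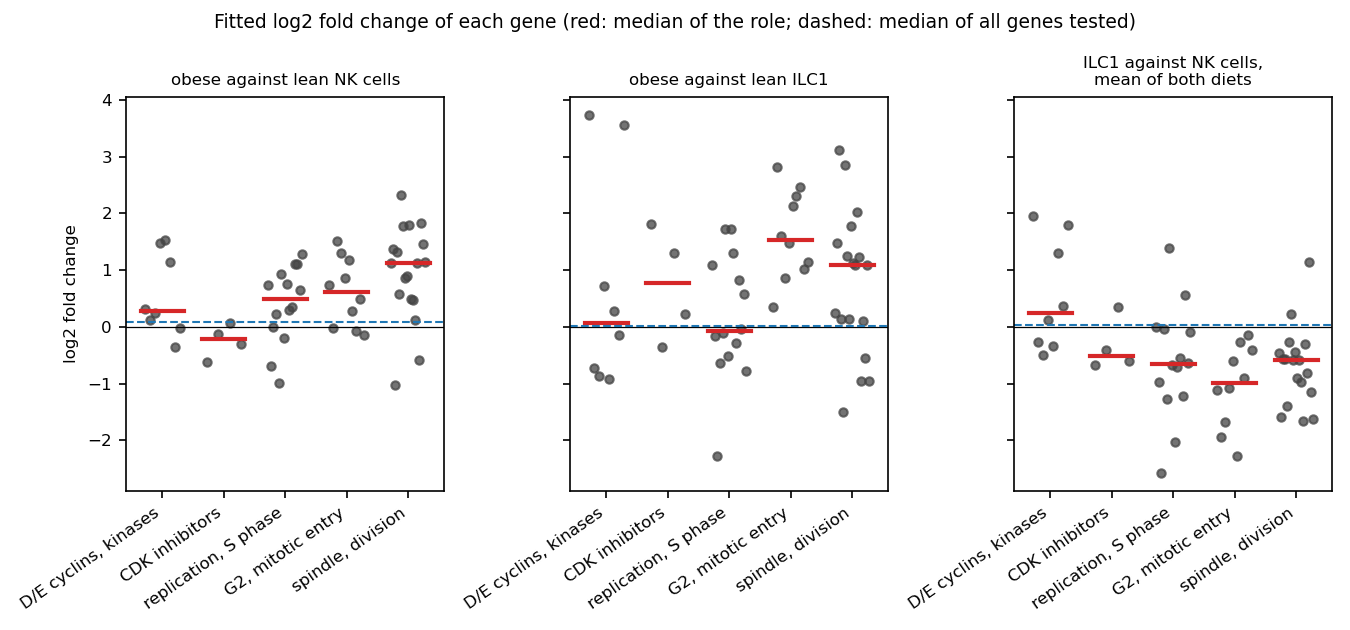
Log2 fold change of each of the 54 genes (points) by role, for obese against lean NK cells, obese against lean ILC1, and ILC1 against NK cells over both diets, with the median of the role in red, 0 as a thin line and the median of all genes tested as a dashed line. All 10 points of G2 and mitotic entry lie above 0 for obese against lean ILC1 and below 0 for ILC1 against NK cells.

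Between ILC1 and NK cells over both diets, edgeR called 0 of the 54 genes, against 4.34% of all genes tested. DESeq2 and the likelihood-ratio test also called 0, with 222 of 3623 and 232 of 2606 genes called. At an unadjusted p under 0.05 were 5 of the 54 (9.26%), against 19% of all genes: Cdk2 was higher in ILC1, and Atad2, Ccna2, Ccnd3 and Cdkn2d were lower. By direction the genes leaned one way, with a negative log2 fold change for 43 of 54, for 10 of 10 of G2 and mitotic entry (median -0.99) and for 16 of 18 of the spindle and division (median -0.58). ILC1 were below NK cells in at least 5 of 6 mice for 23 of the 54 genes (42.6%) and for 20.4% of all genes tested, and in 6 of 6 mice for 3 (5.56%) and 6.14%.

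In lean mice, edgeR called 0 of the 54 genes between the populations, against 2.3% of all genes. DESeq2 called 2 of the 53 it tested, Atad2 and Ccna2, both lower in ILC1, with 151 of 3623 genes called. At an unadjusted p under 0.05 were 6 of the 54 (11.1%), against 13.3% of all genes. Every ILC1 library was below every NK library for 10 of the 54 (18.5%), against 11.1% of all genes, namely Cdkn1a, Cdkn1b, Cdkn2d, Atad2, Ccna2, Cdk1, Cdkn3, Cks2, Cenpa and Cenpf. The reverse held for Cdk2 and Cenpn, 2 of 54 (3.7%), against 13.6% of all genes. Without lean NK 27, 20 of 54 were lower in every ILC1 library (37%), against 21.2% of all genes.

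In obese mice 1 of the 54 genes was called, Ccnd3, and 4 (7.41%) had an unadjusted p under 0.05, against 14.2% of all genes: Ccnd3, Ccnd2 and Cdt1 were lower and Cdk6 higher in ILC1. Every ILC1 library was below every NK library for 17 of the 54 (31.5%), against 15.5% of all genes, among them Ccnd2, Ccnd3, Aurka, Ccnb1, Ccnb2, Birc5, Bub1 and Ckap2l. The reverse held for the kinases Cdk4, Cdk6 and Cdk2, 3 of 54 (5.56%), against 8.6% of all genes. Without obese ILC1 25, 22 of 54 were lower in every ILC1 library (40.7%), against 21.8% of all genes.

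The difference of the diet effect between ILC1 and NK cells was tested directly. EdgeR called 0 of the 54 genes, as it called 0% of all genes tested, and 2 of 54 (3.7%) had an unadjusted p under 0.05, Ccnd2 and Ccnd3, against 5.95% of all genes. DESeq2 called 1 of the 53 it tested, Ccnd3, with 21 of 3623 genes called. The likelihood-ratio test called 0 of the 54, with 9 of 2606 genes called. The diet effect on the mitotic genes is thus not shown to differ between the populations. For Ccnd3 the diet effect was 0.25 ± 0.192 in NK cells and -0.87 ± 0.194 in ILC1 (log2 fold change ± SE), and for Cdk1 it was 0.28 ± 0.717 and 2.31 ± 0.753 (1.12 in ILC1 without obese ILC1 25).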

How the data were processed

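RNA of sorted liver NK cells and ILC1 from 3 lean and 3 obese C57BL/6 (in the methods, C57BL/6J) mice was sequenced by the authors. Per the submitters' notes, reads were handled with bcl2fastq 2.19, Trimmomatic 0.36.5, STAR 2.5.2b and featureCounts 1.6.0.2 on mm10. The annotation, the use of strand and the rule for reads with several hits are not given in the sources used here. The authors deposited raw read counts per gene, which were tested here, and a normalized score per gene, rounded to whole numbers, which was not used. The 5545 complete rows were analysed, and 1 incomplete row was left out.

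The test was edgeR 4.0.16 in R 4.3.3, with TMM scaling, filterByExpr, and glmQLFit and glmQLFTest on 1 model of the 4 groups. P-values were adjusted by Benjamini-Hochberg over 2606 genes. A gene was called at an adjusted p below 0.05 with a change of more than 2-fold, as the study set its thresholds. Where no tool is named, an adjusted p is from this test. An SE is the size of a log2 fold change over the square root of its F statistic. The fits were tried on simulated counts. Alternatives were DESeq2 1.42.0 (which gave no p for Blm), the likelihood-ratio test, other scalings and filters, the compared libraries alone, a replicate block and left-out libraries. The fits without lean NK 27, obese ILC1 25 and obese ILC1 26, and of NK cells without lean NK 27, were chosen after seeing the data. Groups came from the labels. NK cells and ILC1 of the same diet and number came from the same mouse, and their deviations from the group means correlated at -0.08 to 0.14. The genes, roles and other lists were chosen with earlier results of these data known. Values in every library are given for the cyclins and kinases of G1 and the inhibitors, for the 4 highest genes of each other role, for called genes and for the 5 smallest p of each comparison, and for others by range and count. Gene positions and exon lengths are from GENCODE and promoters from RefSeq, both on GRCm38.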

Additional observations from a re-analysis of the deposited data

How the results depend on the processing

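By counting error alone, a count of 0 allows up to 2.51 CPM. Lean NK 27, with 25 of the 54 genes at 0, had 2136211 counts, the highest total of the lean NK libraries. The cause of its zeros was not tested. Of 251 counts and sums recomputed under an alternative, 221 stayed within their limits and 30 moved. Where edgeR called 0 of the 54 genes, DESeq2 called 2 between obese and lean ILC1, 2 between ILC1 and NK cells in lean mice and 1 for the difference of the diet effect. Of the 3623 genes that DESeq2 tested, it called 77, 151 and 21 in these comparisons. Without a fold change threshold 1 was called over both diets (Atad2), with 151 of all genes. The fit of NK libraries without lean NK 27 called 1 (Cdc20), with 11 of all genes. That without both libraries with few genes called 1 between the populations in lean mice (Cdk2), with 112 of all genes. With obese ILC1 26 left out as well, 1 obese ILC1 library remained, so that log2 fold changes alone are given, for ILC1 against NK cells. Over both diets they were -5.79 for Cdc25c, -1.80 for Cdkn1a and -2.75 for Ckap2l. In lean mice they were 1.19 for Cdk2 and -2.34 for Cenpf. In obese mice they were -4.55 for Ckap2l and -0.95 for Ccnd3, the latter under 2-fold. Leaving out 1 library at a time gave 0 to 1 of the 54 over both diets, with 63 to 161 of all genes. In obese mice it gave 0 to 2, with 5 to 66 of all genes. In obese mice, where Ccnd3 was called, 0 were called with only the compared libraries and 0 with the replicate block, in which the mouse stood as a block (adjusted p = 0.181 for Ccnd3). For obese against lean cells no mouse can be a block, and the number that different mice share stood in its place. The block changed no other count of calls among the 54 genes. The comparisons over both diets and of the diet effects use all 12 libraries, so that the compared libraries alone are the same fit.

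Over all genes, edgeR called 113 between the populations over both diets, 60 in lean and 24 in obese mice, and 0 by diet or for its difference. The counts by DESeq2, over 3623 genes, were 222, 151 and 154, then 8 and 77 by diet in NK cells and ILC1, and 21 for the difference. By the likelihood-ratio test they were 232, 122 and 122, then 2 and 57, and 9. With the block they were 46, 21 and 0.

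The 16 genes higher in every obese NK library were 18 to 25 without 1 library. The 10 higher in obese ILC1 were 11 to 18, and 18 without both libraries with few genes. They were 4 with raw library totals, where the share of all genes fell too. The 10 lower in lean ILC1 than in NK cells were 10 to 20, and 20 without both or all 3. The 17 lower in obese ILC1 were 18 to 22, and 29 without all 3. With a library left out, the share of all genes tested without overlap rose too. For genes higher in obese NK cells it rose from 11.6% to 17.1% without lean NK 27. For those higher in obese ILC1 it rose from 7.21% to 16% without obese ILC1 25. For genes lower in ILC1 than in NK cells it rose from 11.1% to 21.2% in lean mice without lean NK 27. In obese mice it rose from 15.5% to 21.8% without obese ILC1 25. A higher count with fewer libraries is thus not by itself a stronger result. Named genes kept their direction except Cdk1 in the difference of the diet effect (-0.36) and Cdk4 in obese against lean NK cells (0.013). Both exceptions came without all 3 libraries. The causes were not tested.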
